A study of Mus musculus with 2 samples.

Results

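Transcripts of 10 lysosomal proteases, the cathepsins Ctsa, Ctsb, Ctsc, Ctsd, Ctsh, Ctsk, Ctsl, Ctss and Ctsz and the asparaginyl endopeptidase legumain (Lgmn), were examined in mouse bone marrow-derived dendritic cells (BMDCs) after UNE-C1 and in control cells. The genes were taken by symbol from the 23238 symbols measured, and all 10 were found once and passed the count floor used here, 50 reads in at least 1 library. The UNE-C1 group was 1 culture given 100 nM UNE-C1, a domain of cysteinyl-tRNA synthetase, for 24 h, and the control group was 1 culture whose own treatment the labels do not state. Both groups came from marrow of female C57BL/6 mice aged 7 weeks, grown with 20 ng/ml of the cytokine GM-CSF, with fresh cytokine on day 3, and the floating and weakly attached immature cells were taken on day 6. Such cultures are a mixture of myeloid cells, and the labels do not say how many mice were pooled. With 1 library in each group the spread between cultures is unknown, there are no p-values, and every difference is one between 2 libraries.

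Cathepsins are made as inactive precursors, carried to endosomes and lysosomes mostly by mannose 6-phosphate receptors, and activated there at acid pH by cleavage. They break down proteins taken up by the cell, and in antigen-presenting cells they cut antigens into peptides and remove the invariant chain (Cd74) from MHC class II molecules. Cystatins, stefins and some serpins inhibit the cysteine cathepsins, and the transcription factor TFEB and its relatives act on many lysosomal genes through the E-box core CACGTG in their promoters.

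The libraries held 15975821 reads for UNE-C1 and 14857198 for the control, made with a kit that reads messenger RNA near its 3' end, so read number was not divided by transcript length. Levels are CPM, reads per 1000000 of the library size adjusted by TMM, a scaling that takes most genes as unchanged. Fold changes are UNE-C1 over control, given as the plain CPM ratio with its exact 95% interval, which covers counting error only, or as log2 fold changes on the CPM + 1 scale. Markers of the labelled cell type were unevenly present. Itgax, which encodes CD11c, stood at 246 CPM in the UNE-C1 library and 759 CPM in the control library, and the class II gene H2-Ab1 at 2594 and 2732 CPM. The conventional dendritic cell factor Zbtb46 had only 62 reads in each library, Flt3 had 62 and 143, and Cd209a had 0 in both. Of 12 dendritic cell markers past the floor, Xcr1 and Irf8 were 2-fold or more above control and Clec9a and Itgax 2-fold or more below it, with a median log2 fold change of -0.24 and 7 of the 12 below 0. The 13 listed summed to 1813 CPM in the UNE-C1 library and 1617 CPM in the control library, and without Irf8, a sum added after seeing the data, to 822 and 1220 CPM. In these unsorted cells, fewer cells of a type and less RNA per cell cannot be told apart.

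The promoter windows of 3 genes are shown, the 2 with the highest fold changes (Ctsc, Ctsk) and the most abundant gene (Ctss). The 3 were picked by these values and not by their motifs, and all 3 windows hold GAGGAA. Each is the 250 bases before the RefSeq start on GRCm38.p6, plus strand for all 3, and capitals mark matches on either strand to GAGGAA (the core bound by the myeloid factor PU.1), TTCNNNGAA (the gamma-activated site bound by STAT proteins) or GAAANNGAAA (the interferon-stimulated response element core).
Ctsc, chr7:88277835-88278084: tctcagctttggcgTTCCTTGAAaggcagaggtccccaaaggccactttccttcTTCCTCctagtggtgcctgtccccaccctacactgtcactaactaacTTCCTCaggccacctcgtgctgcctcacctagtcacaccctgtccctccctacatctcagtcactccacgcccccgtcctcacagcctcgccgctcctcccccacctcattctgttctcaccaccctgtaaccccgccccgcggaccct
Ctsk, chr3:95498960-95499209: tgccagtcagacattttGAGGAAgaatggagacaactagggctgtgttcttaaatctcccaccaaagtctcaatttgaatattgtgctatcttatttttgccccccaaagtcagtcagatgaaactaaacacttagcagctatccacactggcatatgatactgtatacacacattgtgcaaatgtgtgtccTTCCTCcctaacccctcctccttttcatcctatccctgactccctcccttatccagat
Ctss, chr3:95526536-95526785: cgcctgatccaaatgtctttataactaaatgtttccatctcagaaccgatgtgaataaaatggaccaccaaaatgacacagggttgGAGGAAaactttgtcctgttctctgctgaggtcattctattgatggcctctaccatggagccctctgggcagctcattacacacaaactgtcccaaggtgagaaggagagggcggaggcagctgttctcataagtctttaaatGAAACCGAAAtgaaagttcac

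Windows were found for 8 of the 10 genes, as 10 windows, and not for Ctsb and Ctsh. The Ctss window held GAAANNGAAA, 21 to 12 bases before the start, a motif present in 2.98% of all 32851 promoter windows of that length. The Ctsc window held TTCNNNGAA, 236 to 228 bases before the start, which 7.02% of windows held. GAGGAA occurred 2 times in Ctsc, 2 times in Ctsk and once in Ctss and is common, in 23.3% of windows. None of these 3 windows held CACGTG, the E-box core, which 6.02% of windows held. It was found in the windows of Ctsd, Ctsl and the second windows of Ctsa and Lgmn, but these windows are not like the 3 printed ones. Of their 250 bases, 211 in Ctsd, 164 in Ctsa and 48 in Ctsl are exon of the gene itself in GENCODE, whose gene starts lie farther upstream than these RefSeq starts, and the second Lgmn window lies wholly within the gene span. The windows of Ctsc, Ctsk and Ctss hold 0 exon bases. The core lay inside the gene span in Ctsl, Ctsa and Lgmn and in 1 of the 2 copies in Ctsd. The other Ctsd copy, 245 bases before the RefSeq start and upstream of the gene span, is shown with the core in capitals.
Ctsd, chr7:142388055-142388077, minus strand: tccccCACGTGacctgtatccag

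The Ctsz window held none of the 4 motifs. A match is a string of letters, and binding was not measured.

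Ctsc and Ctsk, 2 of the 10 genes, were higher by 2-fold or more with UNE-C1, and 0 were lower by as much. Among all 10469 genes past the floor, 9.31% were higher and 9.42% lower by 2-fold or more. Since the 10 genes are abundant, the same shares were also taken over the 2979 genes with at least 1000 reads in a library, where they were 15.3% and 5.67%, so that the count of 2 in 10 lay near the background. At 1.5-fold, 5 genes were higher and 1 was lower, against 18.2% and 19.3% of all genes. Shares at 1.5-fold were not taken over the abundant genes, so these counts lack a background of like abundance. The median log2 fold change of the 10 was 0.54, beside -0.00 over all genes and 0.13 over the abundant ones. The summed level was 23672 CPM in the UNE-C1 library and 16598 CPM in the control library, a ratio of 1.43 (interval 1.42 to 1.43), and it was 1.26 without Ctss. Scaling by total counts gave a ratio of 1.12 and a median of 0.20, and moved the median of all genes by -0.32. Relative to that shifted median, total counts gave log2 fold changes of 1.83 for Ctsc, 1.06 for Ctsk and -0.82 for Ctsl. Taking the shift away nearly undoes the change of scaling for every gene, so these values are no separate check.

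**Figure D1:**
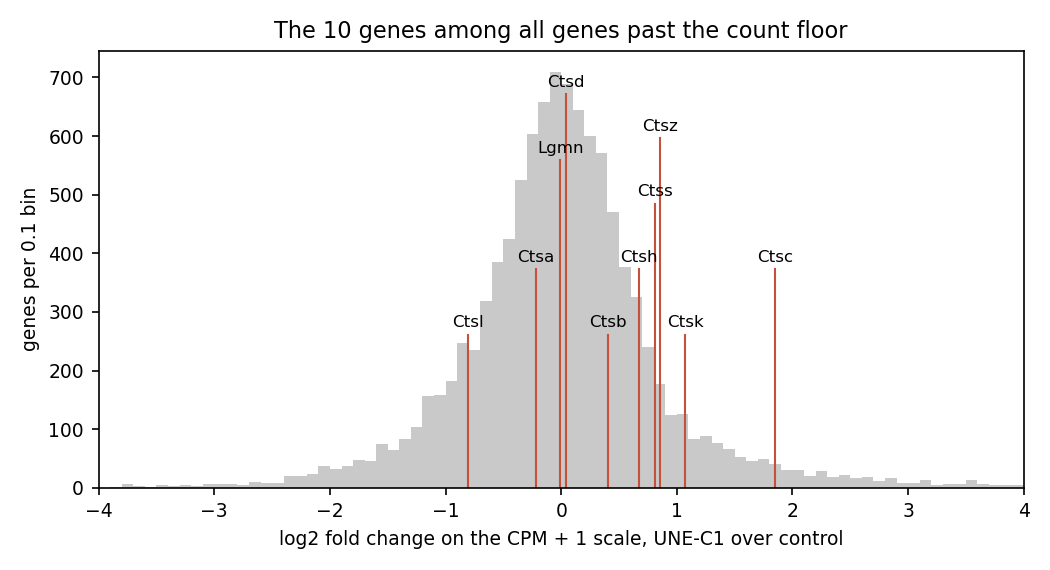
Histogram of log2 fold changes (UNE-C1 over control, CPM + 1 scale) for the 10469 genes past the count floor, in bins of 0.1 and drawn from -4 to 4, with a line for each cathepsin and for legumain. The lines run from -0.81 for Ctsl to 1.85 for Ctsc, and those of Lgmn and Ctsd lie at the middle of all genes.

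Among the cysteine exopeptidases, which trim peptides from their ends, all 3 were higher. Ctsc, the dipeptidyl peptidase that activates the serine proteases of leukocyte granules (chromosome 7, 88278085 to 88310888, plus strand; all gene positions are GRCm38), had 14348 reads in the UNE-C1 library and 4686 in the control library. Its levels were 1012 and 280 CPM, a 3.61-fold difference (interval 3.49 to 3.73), and 368 of the 10469 genes had a higher log2 fold change. Ctsz, a carboxypeptidase also called cathepsin X (chromosome 2, 174427493 to 174439039, minus strand), had 27463 and 17899 reads, or 1936 and 1070 CPM, and was 1.81-fold higher (1.78 to 1.84). Ctsh, an aminopeptidase (chromosome 9, 90054152 to 90076089, plus strand), had 13615 and 10054 reads, or 960 and 601 CPM, and was 1.60-fold higher (1.56 to 1.64). Together the 3 exopeptidases reached 3907 CPM in the UNE-C1 library, against 1951 CPM in the control library.

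The cysteine cathepsins that are endopeptidases, which cut within a chain, went both ways. Ctss, which makes the late cuts of the invariant chain in dendritic cells and stays active at neutral pH (chromosome 3, 95526786 to 95556403, plus strand), was the most abundant of the 10 in both libraries. It had 139666 reads in the UNE-C1 library and 93935 in the control library and was the 11th and 12th most read of all genes. The Ctss levels were 9846 and 5614 CPM, a 1.75-fold difference (1.74 to 1.77). Ctsk, the collagen-degrading protease best known from osteoclasts (chromosome 3, 95499256 to 95509362, plus strand), was the least abundant of the 10 in both libraries. It had 1912 reads in the UNE-C1 library and 1063 in the control library (135 and 63.5 CPM) and was 2.12-fold higher (1.97 to 2.29), so that the interval reached below 2-fold. Ctsk and Ctss lie 17423 bases apart on the same strand, with no annotated gene between them.

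Ctsl, the endopeptidase that takes over invariant chain cleavage in mouse thymic epithelium (chromosome 13, 64359337 to 64370890, minus strand), was the one clearly lower gene. It had 3723 reads in the UNE-C1 library and 7689 in the control library, 262 and 460 CPM, and was 1.75-fold lower (1.68 to 1.82). Scaled by total counts, Ctsl stood at -1.15 in log2, past 2-fold, and Ctsk at 0.73, short of it. Ctsb, an endopeptidase that can also remove dipeptides from the carboxyl end (chromosome 14, 63122462 to 63145923, plus strand), had 54876 and 48937 reads, 3869 and 2925 CPM, and was 1.32-fold higher (1.31 to 1.34). Scaled by total counts, Ctsb stood at 0.06 in log2.

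The remaining proteases, Ctsd, Lgmn and Ctsa, differed little. Ctsd, the main aspartic protease of lysosomes (chromosome 7, 142375911 to 142388038, minus strand), had 72660 reads in the UNE-C1 library and 83526 in the control library. Its levels were 5122 and 4992 CPM, and the ratio of 1.03 (1.02 to 1.04) turned below 1 with total counts and with upper quartile factors. Lgmn, which cuts after asparagine and matures several cathepsins (chromosome 12, 102394084 to 102439813, minus strand), had 1954 and 2315 reads, or 138 CPM in each library. Its ratio of 0.996 (0.937 to 1.06) turned above 1 with DESeq2 size factors, and total counts placed Lgmn at -0.35 in log2. Ctsa, a serine carboxypeptidase that also protects the sialidase Neu1 and the galactosidase Glb1 from breakdown (chromosome 2, 164832873 to 164841032, plus strand), had 5559 and 7641 reads. At 392 and 457 CPM it was 1.17-fold lower (1.13 to 1.21), whereas Neu1 was 1.24-fold higher (1.17 to 1.32) and Glb1 1.28-fold higher (1.15 to 1.43). Per read of Neu1 there were 2.51 reads of Ctsa in the UNE-C1 library and 3.62 in the control library, whatever the scaling.

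**Figure D2:**
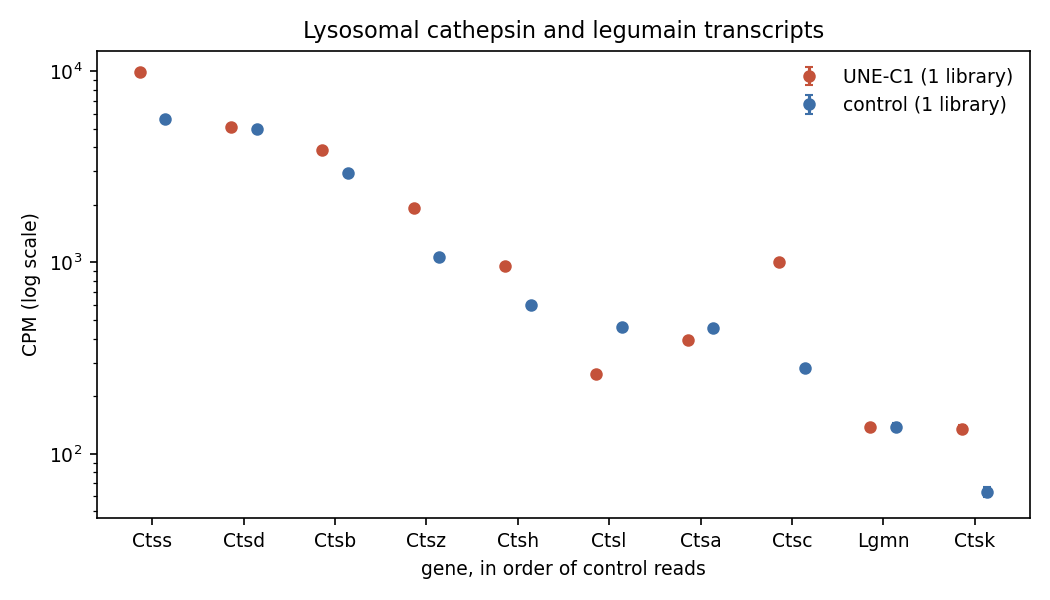
Level of each gene in CPM on a log scale, in order of control reads, with the UNE-C1 library at the left and the control library at the right of each pair and bars for the exact Poisson 95% counting interval. The order starts with Ctss at 9846 and 5614 CPM and ends with Ctsk at 135 and 63.5 CPM.

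**Figure D3:**
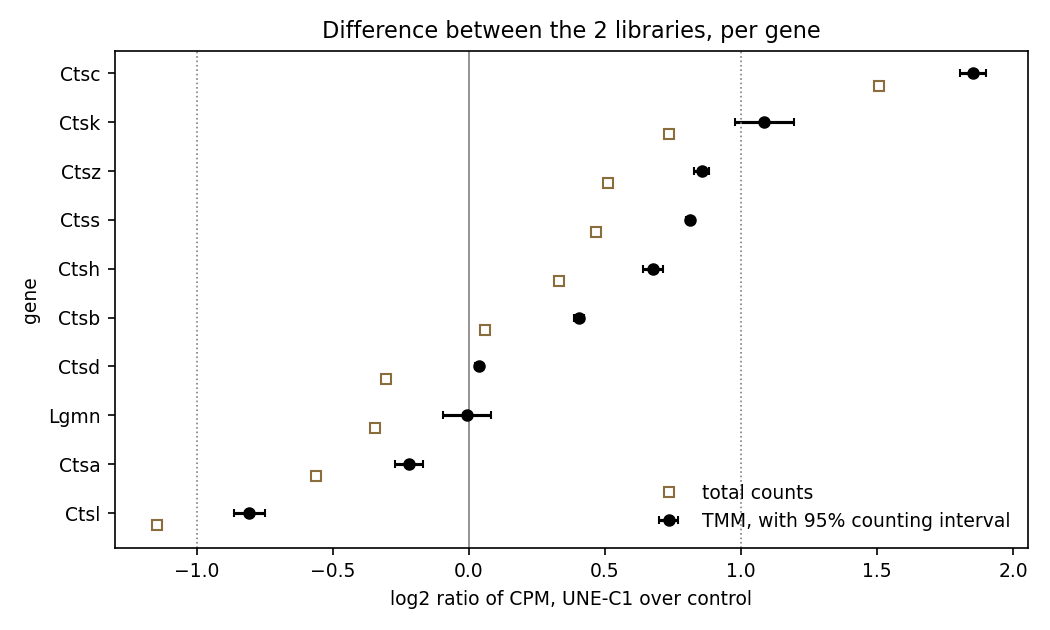
Log2 ratio of CPM, UNE-C1 over control, for each gene with TMM (points, with 95% counting intervals) and with total counts (squares, on the CPM + 1 scale), with dotted lines at 2-fold. Total counts shift all 10 genes to the left by nearly the same step, and Ctsc alone stays beyond 2-fold higher with both.

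Reads of these genes spanned a 73.0-fold range in the UNE-C1 library and an 88.4-fold range in the control library, from Ctsk to Ctss. In the UNE-C1 library the order of reads was Ctss, Ctsd, Ctsb, Ctsz, Ctsc, Ctsh, Ctsa, Ctsl, Lgmn and Ctsk. In the control library it was Ctss, Ctsd, Ctsb, Ctsz, Ctsh, Ctsl, Ctsa, Ctsc, Lgmn and Ctsk. Ctsc thus stood at the fifth place in the UNE-C1 library and at the eighth in the control library. The counting intervals of neighbours in this order overlapped for Lgmn and Ctsk in the UNE-C1 library and for Ctsl and Ctsa in the control library, and for no other neighbours.

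Shares within a library do not depend on how the libraries are scaled to each other. Ctss made up 41.6% of the 10 genes' reads in the UNE-C1 library (exact binomial 95% interval 41.4 to 41.8) and 33.8% in the control library (33.6 to 34.0). Ctsd made up 21.6% (21.5 to 21.8) and 30.1% (29.9 to 30.2), the largest change in percentage points (-8.43). Relative to their own share, Ctsc, Ctsl, Ctsa, Ctsk and Lgmn changed more than Ctsd, with Ctsc and Ctsl changing most. The share of Ctsc was 4.27% (4.205 to 4.34) in the UNE-C1 library and 1.69% (1.64 to 1.74) in the control library, and that of Ctsl 1.11% (1.07 to 1.14) and 2.77% (2.71 to 2.83). Per read of Ctsl there were 3.85 reads of Ctsc in the UNE-C1 library and 0.609 in the control library, a 6.32-fold difference that no scaling alters. Per read of Ctsd there were 1.92 reads of Ctss in the UNE-C1 library and 1.12 in the control library.

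**Figure D4:**
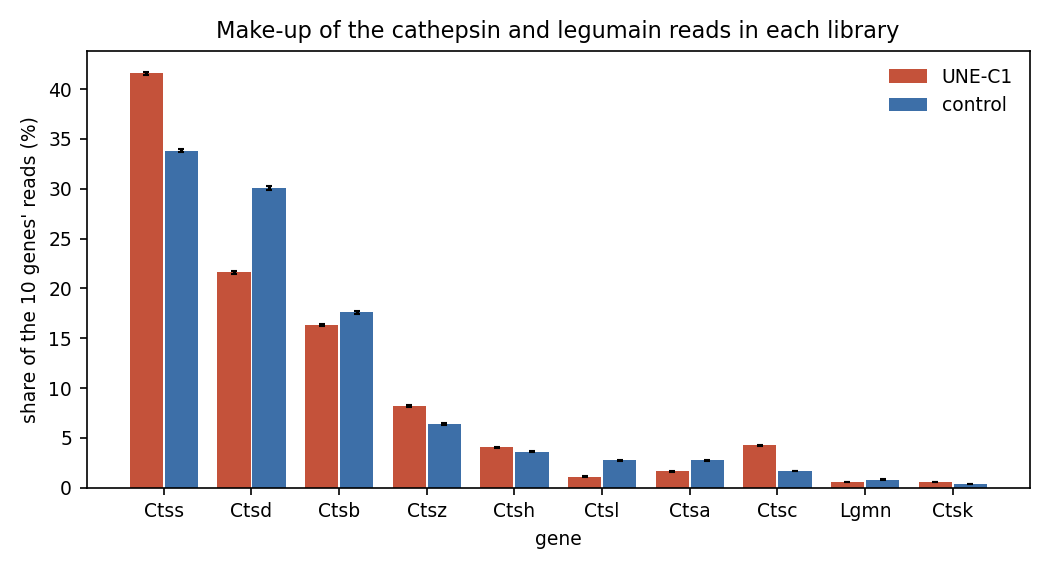
Share of the 10 genes' summed reads held by each gene, in percent, UNE-C1 at the left and control at the right of each pair, with exact binomial 95% intervals. Ctss, Ctsz, Ctsh, Ctsc and Ctsk hold more of the sum in the UNE-C1 library, and Ctsd, Ctsb, Ctsl, Ctsa and Lgmn hold more in the control library.

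Of 8 inhibitors past the floor, 2 were 2-fold or more above control and 2 as far below it (median log2 fold change -0.15). Cst7, which encodes cystatin F, an inhibitor of cathepsin C found in immune cells, had 1297 reads in the UNE-C1 library and 419 in the control library, 91.4 and 25.04 CPM, and was 3.65-fold higher (3.27 to 4.09). Ctsc therefore stood at 11.1 reads per read of Cst7 in the UNE-C1 library and 11.2 in the control library. Serpina3g, a serpin known in the mouse to inhibit cathepsin B, had 223 and 69 reads (3.81-fold higher, 2.90 to 5.07). The most abundant inhibitors, the secreted cystatin Cst3 and the cytosolic stefin Cstb, were 1.33-fold (1.31 to 1.35) and 1.38-fold higher (1.36 to 1.41). Reads of the 10 proteases were 5.27 times those of Cst3 and Cstb together in the UNE-C1 library and 5.004 times in the control library.

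The 4 stefin A genes, Stfa1, Stfa2, Stfa2l1 and Stfa3, were all lower, with log2 fold changes from -1.48 for Stfa2l1 to -0.72 for Stfa3, and summed to 53.0 CPM in the UNE-C1 library and 106 CPM in the control library. They form a multigene family, so the split between them is uncertain, and with total counts 4 inhibitors rather than 2 were at least 2-fold lower. Stefin A genes are also expressed by neutrophils. Of 13 neutrophil markers past the floor 11 were at least 2-fold lower. As far above control was 1, Lcn2, with 7812 reads in the UNE-C1 library and 3778 in the control library. Among all genes past the floor 9.42% were lower and 9.31% higher by as much. The neutrophil markers summed to 3764 CPM in the UNE-C1 library and 8553 CPM in the control library. Their part in these differences was not tested.

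Other lysosomal proteases, among them the cathepsins Ctso, Ctse and Ctsf, went both ways. Of 7 past the floor, 0 were 2-fold or more above control and 1 was as far below it (median -0.31). The lower one was Prcp, a prolyl carboxypeptidase, with 571 and 1501 reads (log2 fold change -1.14). The serine carboxypeptidase Scpep1 was 1.75-fold higher (1.68 to 1.82), and Dpp7, Ctso, Napsa and Tpp1 stood at -0.64, -0.66, -0.31 and -0.23. Ctse, an aspartic protease of antigen-presenting cells, was below the floor with 4 and 27 reads. Cathepsins made in the mouse placenta, whose genes lie near Ctsl, had almost no reads: 7 of 9 had none, Ctsr had 1 in each library, and Ctsj had 0 in the UNE-C1 library and 1 in the control library.

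Of the substrates and partners of these enzymes, 3 of 14 past the floor were 2-fold or more above control and 0 as far below it (median 0.05). With total counts 1 was higher. Cd74 stood at 2901 CPM in the UNE-C1 library and 2907 CPM in the control library, so that reads of Ctss per read of Cd74 were 3.39 and 1.93. Sppl2a, the membrane protease that removes the last Cd74 fragment after cathepsin S has cut, was 2.52-fold higher (2.42 to 2.63), with 6781 and 3173 reads. Ifi30, a lysosomal thiol reductase that opens antigens for the cathepsins, was 1.31-fold higher (1.27 to 1.34). Of the endosomal receptors that cathepsins and legumain cleave, Tlr3 had 392 and 106 reads (log2 fold change 1.97) and Tlr7 had 1077 and 569 (log2 fold change 1.14), and Tlr9 was barely detected with 2 and 0 reads.

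The granule serine proteases that cathepsin C activates went the other way from Ctsc. Elane had 6 reads in the UNE-C1 library and 106 in the control library, Prtn3 had 34 and 134, and Ctsg, below the floor, had 10 and 36. Gzma had no read and Gzmb 1 and 0. Elane is also one of the neutrophil markers above, and the share of those markers' cells in each culture was not measured. Both proteases past the floor were at least 2-fold lower.

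Genes of cathepsin delivery were mostly within 2-fold. Of 14 past the floor, 0 were 2-fold or more above control and 1, Sort1, was as far below it (median 0.04). Sort1 encodes sortilin, a receptor that carries some cathepsins and prosaposin to lysosomes without the mannose 6-phosphate tag, and had 302 reads in the UNE-C1 library and 1252 in the control library (log2 fold change -1.77). The larger mannose 6-phosphate receptor Igf2r had a log2 fold change of -0.77 and the smaller one, M6pr, of 0.14. Of the enzymes that make the tag, Gnptab stood at 0.77 and Nagpa at -0.81. Psap, the saposin precursor that cathepsin D cleaves, was more abundant than any of the 10 proteases, at 18512 and 12428 CPM (1.49-fold higher, 1.48 to 1.498). With total counts 3 genes of this list were at least 2-fold lower.

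Regulators of lysosomal gene expression showed 1 of 9 past 2-fold above control and 0 below it (median 0.09). Tfeb had 183 reads in the UNE-C1 library and 339 in the control library (log2 fold change -0.61), and its relatives Tfec, Tfe3 and Mitf stood at -0.60, 0.09 and 0.24. Fnip2, a partner of folliculin in lysosomal nutrient sensing, had 1850 and 1013 reads (log2 fold change 1.09), which fell short of 2-fold with total counts.

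**Figure D5:**
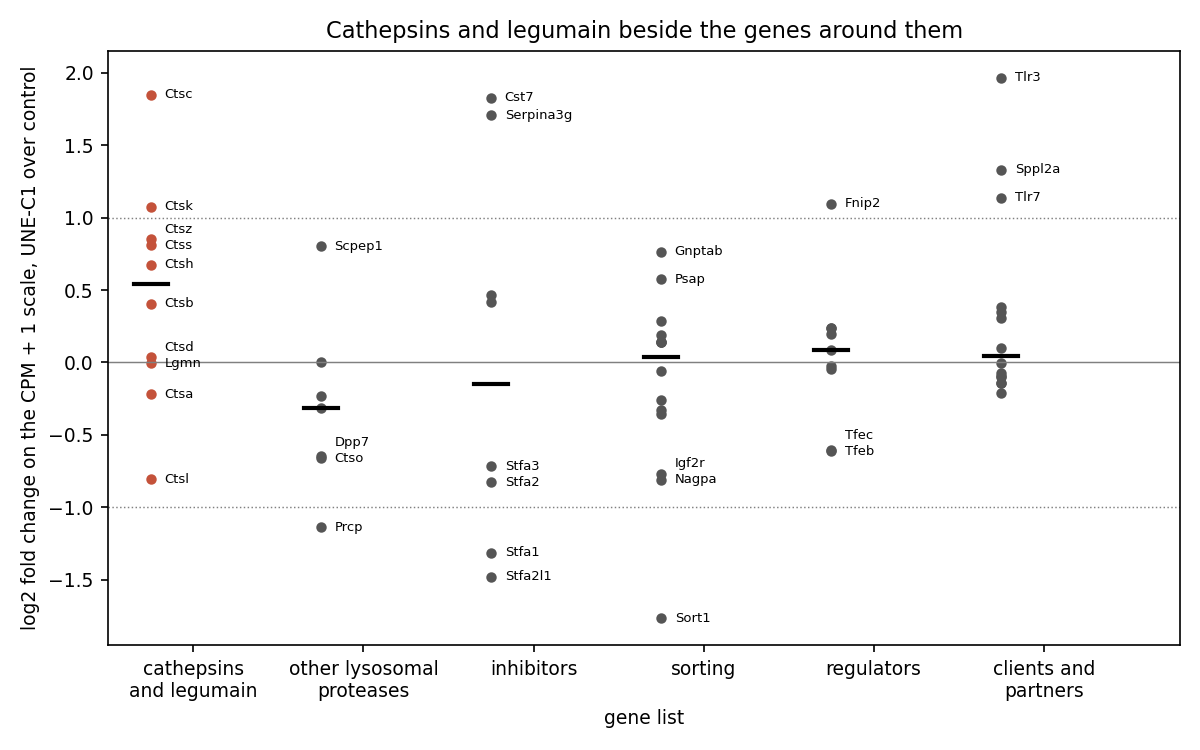
Log2 fold changes (UNE-C1 over control, CPM + 1 scale) of genes past the count floor, a point per gene, for the cathepsins and legumain and for 5 lists of genes around them, with black bars at list medians and dotted lines at 2-fold. Names are given for the 10 proteases and for genes of the other lists at 0.5 or more from 0. The median is 0.54 for the 10 proteases and lies between -0.31 and 0.09 for the other lists.

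Because Ctsk marks osteoclasts, the other genes of that cell type were set beside it. Of 10 osteoclast markers past the floor, 1 was 2-fold or more above control and 4 as far below it. Their median log2 fold change was 0.08, with 5 above 0 and 5 below. The 12 listed summed to 1177 CPM in the UNE-C1 library and 1598 CPM in the control library, where Dcstamp held 10690 of their 26744 reads. The one past 2-fold higher, Acp5, a lysosomal acid phosphatase, had 3206 and 1586 reads (2.38-fold, 2.24 to 2.53), which with total counts was below 2-fold. Those past 2-fold lower were Ocstamp (9 and 373 reads) and Dcstamp (2299 and 10690 reads), which act in cell fusion, the integrin Itgb3 and the proton pump subunit Atp6v0d2. The defining markers Oscar and Calcr had 0 and 0 reads and 4 and 2 reads. Of 14 macrophage and monocyte markers past the floor, 3 were 2-fold or more above control and 6 as far below it. The median log2 fold change of these markers was -0.80, with 5 above 0 and 9 below. Fcgr1 and Ly6c2 stood at 3.55 and 1.74 in log2, and Mrc1 and Ccr2 at -3.56 and -2.39. The 15 found summed to 5229 CPM in the UNE-C1 library and 5530 CPM in the control library. That sum takes in large changes in both directions. The part of either cell type in the Ctsk or Ctsl difference was not tested.

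Overlap with other genes could affect the counts of a few of the 10. The last 500 bases of Ctsb, where 3' reads fall, lie wholly across the gene Fdft1 on the other strand. For Ctsa the ends of all 5 coding transcripts were compared together, and 310 bases lie across Pltp, on the other strand. A match of 288 bases was to Neurl2, also on the other strand. The span of Neurl2 reaches only to 164833456, near the start of Ctsa, so that match is not at the 3' end of the gene. Fdft1 had 817 reads in the UNE-C1 library and 1829 in the control library, few beside Ctsb, whereas Pltp had 4538 and 5894, nearly as many as Ctsa, and Neurl2 had 60 and 103. No source states whether counting used the strand, so the Ctsa difference is uncertain. Ctsz and Nelfcd, on opposite strands, overlap by their last bases. Nelfcd had 5409 reads in the UNE-C1 library and 3548 in the control library, and its part in the Ctsz count was not tested. On the same strand the span of Ctsd overlaps that of Gm49369, Ctsl holds the pseudogene Gm49230 and Ctss the pseudogene Hmgb1-ps5. In the remaining 8 genes no other annotated transcript matched the last 500 bases at 95% identity over 100 bases or more.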

How the data were processed

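The authors deposited raw read counts for each symbol in each library; the unit was read from the values, which are whole numbers. Bowtie2, edgeR and the build mm10 (GRCm38) are named, per the submitters' processing notes, with no version or role. How reads were counted, on which annotation and strand, is not stated there, and the kit reads 3' ends, per the labels' protocols. Each file held 23282 entries. The 35 repeated symbols (79 entries) were summed, none was blank, and Rn45s took 3.98% of UNE-C1 reads and 5.21% of control reads. TMM factors (edgeR 4.0.16, R 4.3.3) were 0.888 for UNE-C1 and 1.13 for the control. CPM ratios have exact conditional binomial (Clopper-Pearson) 95% intervals (scipy 1.17.1), which cover counting error only, since PCR copies cannot be told from molecules. The floor of 50 reads was 3.52 CPM in UNE-C1 and 2.99 CPM in the control. A gene was counted as changed at 2-fold or more on the log2(CPM + 1) scale. No count model was fitted. The calculation was tested on simulated data. Positions and transcripts come from GENCODE M21, promoters from RefSeq on GRCm38.p6, and transcript ends were compared with blastn 2.17.0. Genes named are all 10 proteases, up to 4 of each list with the largest change and a fixed set of partners. Dpp7, Ctso, Tpp1, Napsa, Stfa2, Stfa3, Lcn2, Neu1, Glb1, Psap, Zbtb46, Flt3, Cd209a, Itgax, Prtn3, Gzma, Gzmb, Ctsr, Ctsj, Oscar, Calcr, Ctsf, Fdft1, Pltp, Neurl2, Nelfcd, Xcr1, Irf8, Clec9a and H2-Ab1 were added by choice after values were seen. Of these, Dpp7, Ctso, Itgax, Prtn3, Xcr1, Irf8 and Clec9a also fall under the rule of up to 4 per list. The proteases and lists were chosen with earlier results of these data known.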

Additional observations from a re-analysis of the deposited data

How the results depend on the processing

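No paired analysis was possible because each group has 1 library. With total counts 1 of the 10 proteases was at least 2-fold higher (Ctsc) and 1 lower (Ctsl). Of all 10469 genes past the floor, 657 were then higher and 1693 lower by as much. The median log2 fold change of the 10 was 0.20 and the summed ratio 1.12. With upper quartile factors 1 was higher and 0 lower, beside 868 and 1130 of all genes. The median was then 0.45 and the ratio 1.34, and with DESeq2 size factors the ratio was 1.43. At a 1.5-fold threshold 5 were higher and 1 lower, beside 18.2% and 19.3% of all genes. Leaving Rn45s out and pseudocounts of 0.1 and 5 CPM left both counts at 2 and 0. No floor and a floor of 200 reads could not change them, since even Ctsk, the least read of the 10, had 1912 and 1063 reads. With 1 gene left out the median was 0.67 or 0.40, as its 2 middle values lie apart. The summed ratio was 1.60 without Ctsd, 1.45 without Ctsb or Ctsl, 1.44 without Ctsa, 1.40 without Ctsz, 1.39 without Ctsc and 1.26 without Ctss. Ctsc gained 2.59 percentage points of the 10 genes' reads, and 11.8 points once Ctsb, Ctsd and Ctss were left out of the sum. Over the scalings tried, 8 of the 10 genes kept their direction and Ctsd and Lgmn did not. A pseudocount cannot turn a direction. Over the 7 scalings and pseudocounts together, Ctsc was past 2-fold in 7, Ctsk in 5 and Ctsl in 1. The share of higher genes among all genes changed 2-fold was 49.7%, and 28.0% with total counts, 59.9% with a pseudocount of 5 CPM. Recomputed list counts moved by over 1.5 times, or to or from 0, in 29 cases and did not in 259. The 259 take in counts of 0 that stayed 0, among them all those of the placental cathepsins, of which 0 passed the floor. They are therefore no measure of stability. No setting replaces a second library per group.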

Other observations

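The nearest genes past the floor on either side of each protease, leaving out overlapping ones, were set beside it. Their distance reached 3588126 bases, for a neighbour of Ctsc. Of 18 such neighbours past the floor that are not among the 10, 1 was 2-fold or more above control, 2 were as far below it and 15 were within 2-fold, with a median log2 fold change of -0.16. Over all genes past the floor 9.31% were higher and 9.42% lower by as much. The counts lie near those shares and cannot show whether neighbours share a difference. The higher one, Golph3l, is the nearest gene past the floor on the far side of Ctss from Ctsk, and had 1293 reads in the UNE-C1 library and 741 in the control library (log2 fold change 1.03). On the other side of the pair formed by Ctsk and Ctss, Arnt had 279 and 333 reads (log2 fold change -0.02). The lower ones were Rasgrf1 beside Ctsh (19 and 76 reads) and Cdk20 beside Ctsl (91 and 272 reads). These genes were named after their values were seen.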
